A study of Mus musculus with 6 samples.

Results

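The genes described here make cholesterol and fatty acids or control that synthesis, and most are textbook targets of the sterol regulatory element-binding proteins (SREBPs). Members were taken as a list of 33 gene symbols, matched to the symbol column of the count table. All 33 were found, as 33 of 55487 genes in the table, and all 33 passed the filter on low counts that left 15787 genes for testing. The list holds 5 regulators, 8 enzymes of the mevalonate and isoprenoid steps, 11 enzymes of squalene and sterol ring synthesis, the cholesterol transfer protein gene Stard4, 4 genes of fatty acid synthesis and 4 desaturases. The rule uses no measured value.

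SREBP precursors sit in the endoplasmic reticulum membrane bound to the escort protein SCAP. When membrane cholesterol is high, INSIG proteins hold SCAP there. When it is low, SCAP carries the SREBP to the Golgi apparatus, where proteases release a fragment that enters the nucleus and switches on genes for sterol and fatty acid synthesis. Microglia, the resident macrophages of the brain, take up myelin and cell debris and so have to handle cholesterol that they did not make themselves.

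RNA was sequenced from live CD45-intermediate, CD11b-positive cells of the cortex, sorted from 3 control and 3 knockout mice, all female and 20 months old. Every mouse carried the loxP-flanked allele Atg7-fl/fl, and the knockouts carried Cx3cr1-CreERT2 as well, a tamoxifen-dependent Cre recombinase driven from a microglia and macrophage gene. Controls had no Cre allele, so loss of Atg7 and carriage of the Cre at Cx3cr1 cannot be told apart, and the labels give neither a tamoxifen schedule nor another treatment. Levels are given as CPM, the share of reads scaled to a fixed total and by TMM. Atg7, which encodes an enzyme needed to build autophagosomes, was the targeted gene. It measured 65.7, 66.4 and 56.6 CPM in the controls and 25.0, 26.5 and 23.7 in the knockouts, in order of replicate number here and throughout, so every library matched its label. The 8 microglial markers summed to 45848 to 50977 CPM in controls and 40533 to 45770 in knockouts. The groups did not overlap, by a narrow margin between control 3 and knockout 1. Of these markers 7 lay below 0, at a median log2 fold change of -0.20, with 3 at an unadjusted edgeR p under 0.05 and 0 called. Of all 15787 genes tested 7497 lay below 0, and 1.98% were lower at that p. The summed neuronal markers stayed at or below 6.29 CPM. Neutrophil markers summed to 44.1 to 475 CPM in controls and 138 to 1985 in knockouts, and monocyte markers to 9.83 to 47.1 and 19.5 to 136 CPM, both highest in knockout 1. All 6 neutrophil markers and all 4 monocyte markers tested lay above 0, at median log2 fold changes of 1.76 and 1.16, with 0 called by edgeR.

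Library totals ran from 1254380 reads in control 3 and 3789208 in knockout 2 to 39389527 in control 1. Control 3 and knockout 2, the libraries of low depth, also held many reads of genes that were scarce elsewhere. A set of 88 genes, 0.557% of those tested, had at least 10 CPM in both and at least 10 times the highest level of control 1, control 2 and knockout 1. The rule for that set was made after the values were seen and fixes that these 2 libraries are high in it, and no other pair of libraries was put through it. These genes took 7.47% of the reads of control 3 and 3.26% of those of knockout 2, against 0.0143%, 0.0153% and 0.0135% in controls 1 and 2 and knockout 1 and 0.507% in knockout 3. The set held 1 member of the list, Fasn. Its highest levels were those of Rad9b, at 30315 CPM in control 3 and 10511 in knockout 2, and it also held olfactory receptor genes and pseudogenes. In RNA pooled from many cells, fewer cells of a type and less RNA per cell cannot be told apart. The labels number the libraries as biological replicates, and without molecular identifiers reads are not independent molecules, so counting intervals and floors cover counting error only.

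SREBPs bind sterol regulatory elements and, in some promoters, E-boxes, usually beside sites for NF-Y and Sp1. Promoter sequences from 250 bases before to 50 after the transcription start were matched by symbol in RefSeq (GRCm38.p6) for 26 of the 33 genes, giving 34 promoters among 32851 in the table. On either strand, the sterol element core TCACNCCAC occurred in 1 of the 34 member promoters (2.94%), that of Hmgcs1, and in 1.24% of all promoters. The looser form TCANNCCAC, which includes the core, occurred in 2 (5.88%, Hmgcs1 and Acly) against 4.18% of all. The E-box CACGTG occurred in 6 (17.6%), which belong to Dhcr7, Hsd17b7, Insig1, Sc5d and Scap, against 7.15%. The Scap promoters that hold it overlap and share the same E-box, which is counted in each. NF-Y's CCAAT occurred in 22 (64.7%) against 37.4%, and Sp1's GGGCGG in 25 (73.5%) against 35.7%. For Dhcr7 these motifs lay in other promoters of the gene than the E-box did. A match is a description of these letters and not a measured binding site, and a promoter without one lacks only those letters in this window. Insig1 is a sterol-responsive regulator, and Dhcr7 had the smallest edgeR p-value of the list. The stretches below show their E-boxes and both sterol element matches. Each reads 5′ to 3′ on the gene's own strand, with the motif in capitals.
Hmgcs1, chr13:119690174-119690262, plus strand, sterol element core: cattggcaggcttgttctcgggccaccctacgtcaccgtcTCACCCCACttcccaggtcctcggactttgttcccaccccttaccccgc
Acly, chr11:100528110-100528198, minus strand, looser sterol element: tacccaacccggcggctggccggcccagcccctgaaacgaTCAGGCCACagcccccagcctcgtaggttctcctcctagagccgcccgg
Insig1, chr5:28071271-28071356, plus strand, E-box: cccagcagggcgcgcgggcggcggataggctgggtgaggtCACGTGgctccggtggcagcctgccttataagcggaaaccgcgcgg
Dhcr7, chr7:143823195-143823280, plus strand, E-box: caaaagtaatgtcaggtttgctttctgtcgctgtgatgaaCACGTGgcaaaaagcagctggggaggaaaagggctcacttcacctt

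Levels within the pathway spread widely. Per kilobase of exon, with lengths from GENCODE M21, the highest median level over the 6 libraries was that of Ebp at 60.2 CPM per kb. Acly followed at 31.6, Insig2 at 18.7, Ggps1 at 15.9 and Scd2 at 14.8 CPM per kb. These genes belong to different arms of the pathway: sterol isomerisation, supply of cytosolic acetyl-CoA, sterol sensing, isoprenoid synthesis and desaturation. At the other end, Elovl6, an elongase of long-chain fatty acids, had 0.0583 CPM per kb and Scd1, a stearoyl-CoA desaturase, 0.166 CPM per kb. Neighbours in this order often overlapped between libraries. Insig2 ranged from 9.73 to 19.1 CPM per kb and Ggps1 from 12.8 to 18.7, whereas the ranges of Ebp (52.4 to 62.4) and Acly (27.2 to 38.9) did not meet. Each desaturase pair had one dominant gene. Scd2, at 14.8 CPM per kb, stood far above Scd1, and Fads1, the delta-5 desaturase of polyunsaturated fatty acids, at 13.5 CPM per kb, above Fads2, the delta-6 desaturase, at 0.461.

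**Figure D1:**
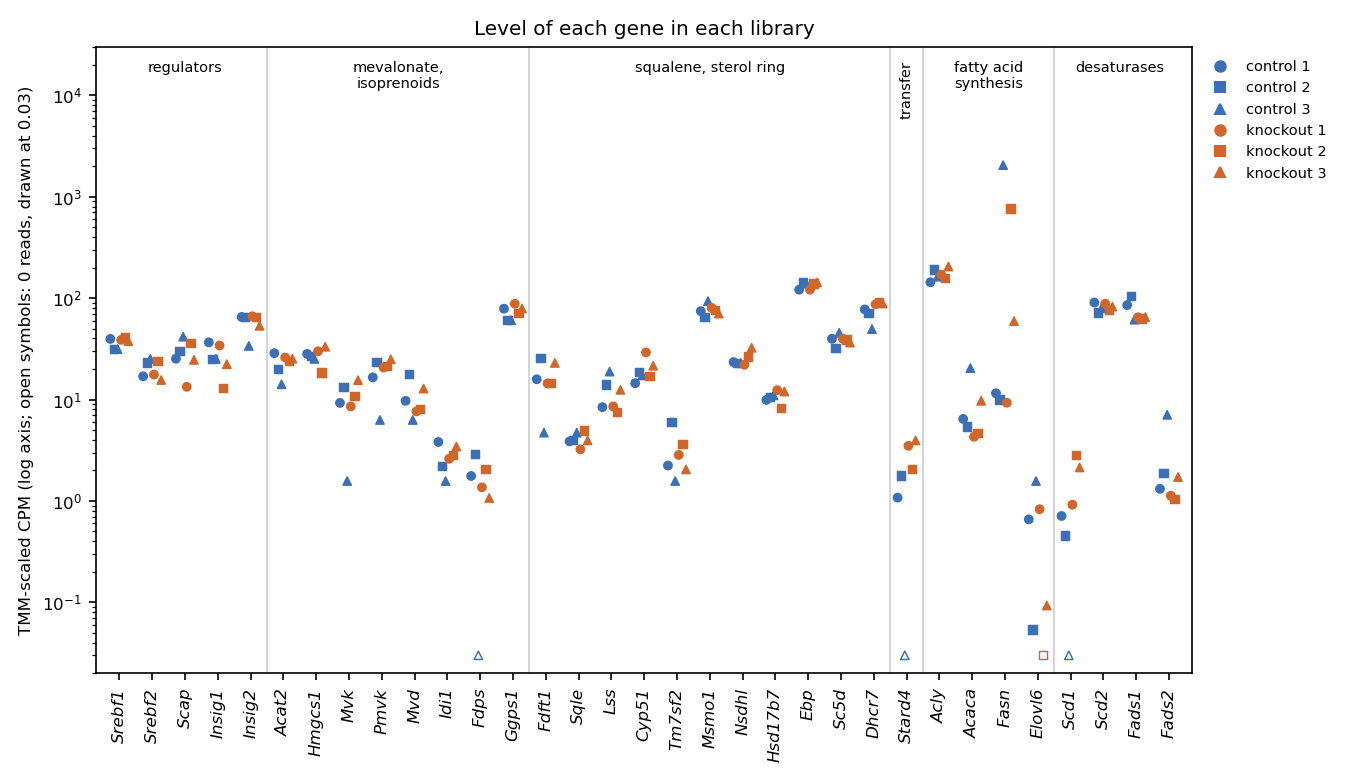
Level of each of the 33 genes in each library, in TMM-scaled CPM on a log axis, grouped by role; blue symbols are controls, orange symbols knockouts, circles, squares and triangles replicates 1 to 3, and open symbols mark 0 reads. Genes such as Ebp and Scd2 sit within a narrow band over the 6 libraries, while Mvk spans 1.57 to 15.5 CPM and Fasn 9.29 to 2051 CPM.

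The comparison of the groups asks whether this programme differed in microglia that carried the Atg7 deletion. By edgeR's quasi-likelihood test with Benjamini-Hochberg adjustment over 15787 genes, 0 of the 33 genes were called higher at an adjusted p under 0.05 and 0 lower. Of all genes tested, 0.0317% were called higher and 0.0127% lower, so a list of this size would hold almost no call at the rate of all genes. DESeq2 called 0 of the 33 (0.526% of all genes in either direction), and limma voom called 0 as well (0.095% of all). The lowest edgeR adjusted p among the 33 genes was 0.999. On the log2 scale, knockout over control lay above 0 for 17 genes and below 0 for 16. The median log2 fold change was 0.03 against 0.02 over all genes tested.

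At an unadjusted edgeR p under 0.05, 1 gene was higher in the knockouts, Dhcr7, and 0 were lower. Of all genes 2.34% were higher and 1.98% lower by edgeR. With DESeq2 1 gene was higher, Dhcr7 (DESeq2 p 0.0365), and 1 lower, Fads1 (DESeq2 p 0.0311). With limma voom Fads1 had a p of 0.0093 and Dhcr7 one of 0.0713, so the count and the gene with the smallest p depend on the tool. The groups did not overlap, with the knockouts higher, for 3 genes, Dhcr7, Stard4 and Scd1, and in the other direction for 0. Over all genes the shares were 6.59% and 4.47%. For Stard4 and Scd1 this rests on 0 reads in control 3. Among genes with a mean of at least 5 CPM, Dhcr7 was the 1 of 25 on the list, against 611 of 9593 of all genes. For 16 of the 33 genes the 95% interval of the log2 fold change lay within 1 of zero on either side, so a doubling or halving fell outside it, as it did for 6825 of all 15787 genes. For 11 genes the interval was more than 2 log2 units wide, and for these little can be said at this depth.

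**Figure D2:**
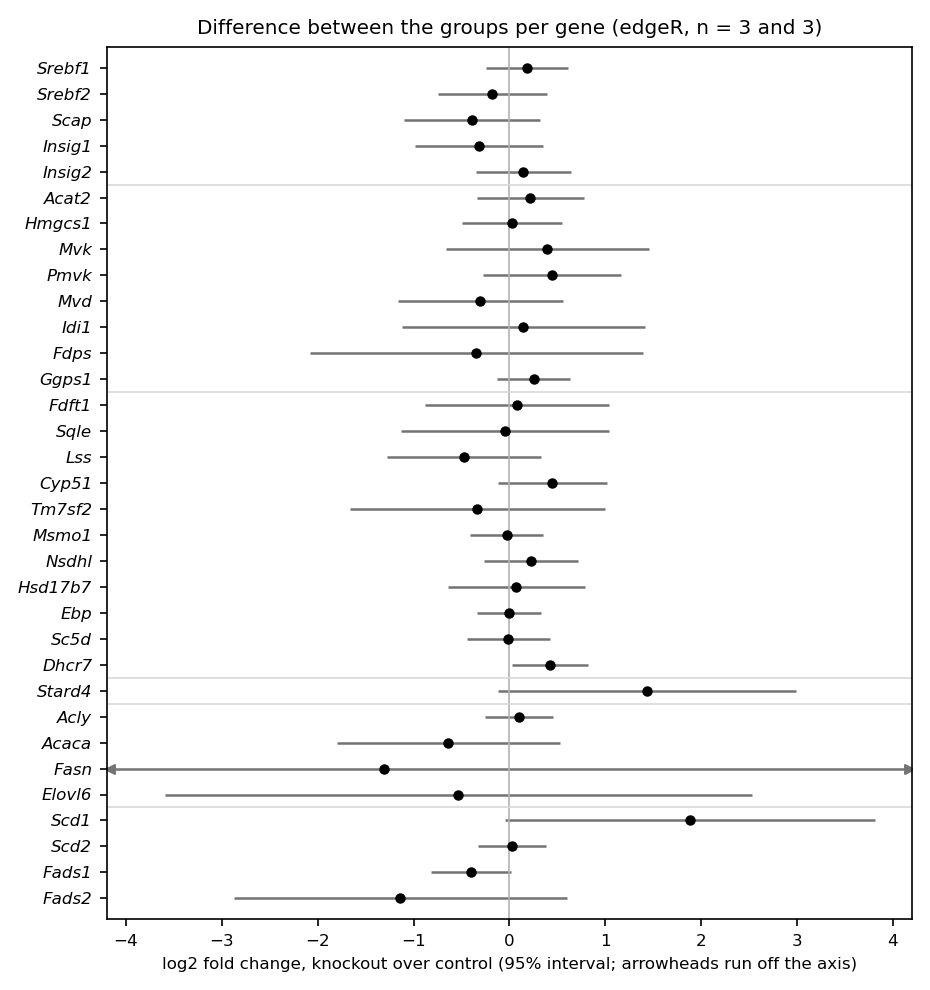
Log2 fold change of knockout over control for each gene, with its 95% interval from edgeR (3 libraries a group), ordered by role. The interval lies above 0 for Dhcr7 alone, and that of Fasn, from -8.92 to 6.30, runs off both ends of the axis.

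The regulators were measured at moderate levels and none passed the test. Srebf1, which encodes the SREBP form tied mainly to fatty acid synthesis, measured 39.6, 31.6 and 31.4 CPM in the controls and 38.8, 41.0 and 37.6 in the knockouts. The knockouts lay close together at the upper end of the range and overlapped with control 1. This gave a log2 fold change of 0.18 (SE 0.20, 95% interval -0.25 to 0.61). Srebf2, whose protein mainly drives cholesterol synthesis, measured 16.9, 23.2 and 25.1 CPM in the controls and 17.6, 24.2 and 15.6 in the knockouts. Here high and low libraries were found in both groups, at a log2 fold change of -0.18 (SE 0.27, interval -0.75 to 0.39).

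Scap, the SREBP escort, had its highest value in control 3 and its lowest in knockout 1. It measured 25.2, 30.3 and 41.6 CPM in the controls and 13.3, 35.8 and 24.6 in the knockouts (log2 fold change -0.39, SE 0.33, interval -1.10 to 0.32). An overlapping gene covers 13.2% of the exonic bases of Scap, and no source used here says whether counting used the strand, so some of its reads could belong to that gene. Insig1, itself a known SREBP target, measured 36.7, 25.2 and 25.1 CPM in the controls and 34.1, 13 and 22.3 in the knockouts. Its groups overlapped, with knockout 2 lowest, at a log2 fold change of -0.32 (SE 0.31, interval -0.99 to 0.35). Insig2, the form under less sterol control, measured 65.2, 64.9 and 33.8 CPM in the controls and 66.2, 65.5 and 53.3 in the knockouts. Apart from control 3, and to a lesser degree knockout 3, these libraries were nearly level. Its log2 fold change was 0.15 (SE 0.23, interval -0.35 to 0.64), and -0.13 without the libraries of low depth. Summed, the 5 regulators gave 172 ± 13.6 CPM in controls and 168 ± 13.2 in knockouts (SD, n = 3 each).

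The early mevalonate enzymes turn acetyl-CoA into isoprenoid units. Of the 8 genes 6 lay above 0 and 2 below on the log2 scale, between -0.35 and 0.44. Their median was 0.18, and none passed the test. Hmgcs1, which encodes the synthase that makes HMG-CoA and has the promoter sterol element shown above, measured 28.2, 27.0 and 25.1 CPM in the controls and 29.9, 18.4 and 33.2 in the knockouts. The controls fell between the knockout values, and the log2 fold change was 0.03 (SE 0.25, interval -0.50 to 0.55). Hmgcs1 shares 11.6% of its 50-base words with other genes, so part of its count is uncertain.

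Ggps1, which makes the geranylgeranyl group attached to small GTPases, was the most abundant of these 8 genes. Its level was 66.6 ± 10.5 CPM in controls and 79.6 ± 8.20 in knockouts, a log2 fold change of 0.25 (SE 0.18). The kinases of the pathway, Mvk and Pmvk, had log2 fold changes of 0.40 and 0.44, and rested in control 3 on 2 and 8 reads. Without the libraries of low depth these values were 0.08 and 0.18. Mvd, the decarboxylase after them, had -0.30, 0.21 without control 2 and -0.44 without the libraries of low depth, with 8 reads in control 3. Acat2 (0.22), Idi1 (0.14) and Fdps (-0.35) share 39.1%, 25.3% and 26.2% of their 50-base words with other genes, mainly near-identical copies or an overlapping gene, so their counts are uncertain. Fdps had 0 reads in control 3, where 3 reads would be 2.36 CPM, above its level in every other library but control 2. Its log2 fold change was 0.35 without control 2 and -0.94 without the libraries of low depth.

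The sterol ring enzymes turn farnesyl diphosphate into cholesterol by way of squalene and lanosterol. Among these 11 genes 5 lay above 0 and 6 below, and the median log2 fold change was -0.00. Dhcr7, the reductase of the last step on one branch, had the smallest edgeR p-value of the whole list. Its level was 77.4, 71.3 and 49.5 CPM in the controls and 87.0, 92.2 and 88.6 in the knockouts. Each knockout lay above each control, and control 3, with 63 reads, was lowest. The means were 66.1 ± 14.7 and 89.3 ± 2.68 CPM (SD, n = 3 each), a log2 fold change of 0.42 (SE 0.19, interval 0.02 to 0.82). The edgeR p was 0.0395 and the Benjamini-Hochberg adjusted p was 0.999, so the difference did not pass. Without control 3 the log2 fold change was 0.25, and without both libraries of low depth 0.23 with an edgeR p of 0.150 and an adjusted p of 0.855.

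Cyp51, the lanosterol demethylase, was added after its values were seen, because its difference grew when the libraries of low depth were left out. It measured 14.5, 18.6 and 17.3 CPM in the controls and 29.2, 17.1 and 21.5 in the knockouts, with knockout 1 highest and knockout 2 among the controls. The log2 fold change was 0.45 (SE 0.27, interval -0.12 to 1.01), and 0.61 without the libraries of low depth (edgeR p 0.0393, adjusted p 0.678). It was 0.19 without knockout 1.

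Ebp, the sterol isomerase with the highest level per kilobase of the list, was close to level over the libraries. It measured 121, 144 and 139 CPM in the controls and 121, 139 and 143 in the knockouts. The highest library stood 1.19 times above the lowest, and the log2 fold change was -0.00 (SE 0.16, interval -0.34 to 0.33). Msmo1, a C-4 sterol methyl oxidase also added after its values were seen, measured 74.5, 65.4 and 93.5 CPM in the controls and 80.2, 76.4 and 70.5 in the knockouts. All knockouts lay within the range of the controls, and its log2 fold change was -0.03 (SE 0.18, interval -0.41 to 0.35).

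The other genes of this arm had log2 fold changes between -0.47 (Lss, the lanosterol synthase) and 0.23 (Nsdhl, a C-4 demethylating dehydrogenase), each with a 95% interval that spans 0. Without the libraries of low depth Lss had -0.11 and Tm7sf2, a sterol reductase, -0.76. Sqle, the squalene epoxidase and a rate-controlling step, had a low level of 4.20 ± 0.455 CPM in controls and 4.04 ± 0.858 in knockouts. Over all libraries Fdft1, the squalene synthase, had 0.07, Tm7sf2 -0.34, Hsd17b7, a sterol ketoreductase, 0.07, and Sc5d, the C-5 desaturase, -0.01. Fdft1 overlaps Ctsb in 18.3% of its exonic bases, and Tm7sf2 overlaps Vps51 in 12.1%, so both counts are uncertain. Without control 2 these genes had 0.63 and 0.50, values that lean on 6 and 2 reads in control 3. Without the libraries of low depth Fdft1 had -0.16.

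Summing enzymes gave a view in which low counts weigh little. The 11 sterol ring genes summed to 391, 415 and 409 CPM in controls and 421, 429 and 446 in knockouts, and the 19 cholesterol enzymes of both arms to 568, 582 and 524 against 606, 589 and 641. In both sums each knockout lay above each control, at a ratio of the group means of 1.07 and 1.10. No test was made of a sum. Only Dhcr7 was left out of the sums, so the gaps cannot be credited to it alone. Without it, a sum chosen after seeing the data, the other 10 sterol ring genes summed to 313, 344 and 359 CPM in controls and 334, 337 and 357 in knockouts, and the other 18 enzymes to 490, 511 and 475 against 519, 497 and 552. Both sums then overlapped, at ratios of 1.01 and 1.06. Oligodendrocytes and astrocytes make much of the brain's cholesterol, so their markers were read beside these sums. The 8 oligodendrocyte markers summed to 215 to 256 CPM in controls and 211 to 236 in knockouts, mostly from Cnp and Mbp, while Mog reached at most 0.368 CPM and Cldn11 and Ugt8a were at or near 0. The 7 astrocyte markers summed to 299 to 335 and 277 to 371 CPM, mostly from Slc1a3, with Aqp4 at most 6.29 and Gfap at most 1.60 CPM. Both sums overlapped, but single markers moved apart within them. Cnp, the largest oligodendrocyte marker, had 151 ± 6.45 CPM in controls and 122 ± 5.77 in knockouts, while Mbp had 49.8 ± 16.2 and 70.1 ± 8.40 and Mobp 2.35 ± 1.05 and 5.69 ± 1.24 (SD, n = 3 each). Of the 5 oligodendrocyte markers tested 4 lay above 0, at a median log2 fold change of 0.48. Among the astrocyte markers 4 of 7 lay above 0, at a median of 0.04. Aldh1l1 had 3.34 ± 1.61 and 8.88 ± 1.70 CPM and was higher without overlap, as were 6.59% of all genes. Aqp4, Gja1 and Slc1a2 lay below 0, at log2 fold changes of -1.31, -0.77 and -0.68. None of these was called by edgeR. The part of these cells, and of the lower microglial markers, in the sterol enzyme levels was not tested.

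**Figure D3:**
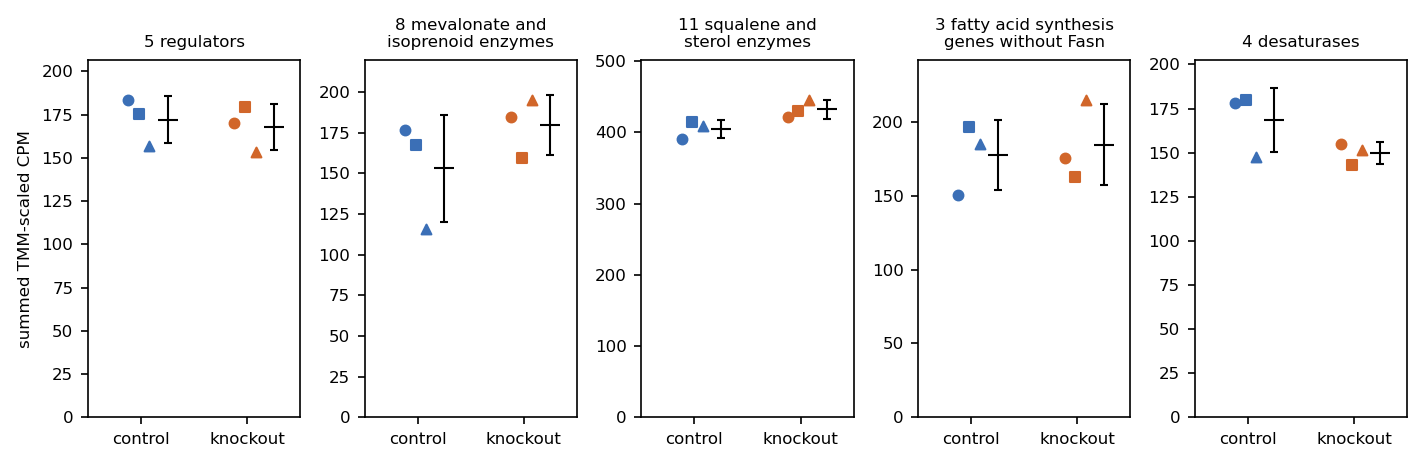
Summed TMM-scaled CPM of each role in each library (circles, squares and triangles for replicates 1 to 3), with the mean and SD of 3 libraries beside them; Stard4 stands alone in its role and is not drawn, and Fasn is left out of its sum. The 11 squalene and sterol enzymes reach 391 to 415 CPM in controls and 421 to 446 in knockouts, and the other roles overlap. Without Dhcr7 that sum overlaps as well, but no other gene was left out of it, so the gap cannot be credited to Dhcr7 alone.

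Stard4, which moves cholesterol between membranes and is a known SREBP target, was detected at a low level. It measured 1.08, 1.77 and 0 CPM in the controls (41, 66 and 0 reads) and 3.49, 2.08 and 3.95 in the knockouts (118, 8 and 85 reads). The deep knockouts 1 and 3 lay above the deep controls. Control 3 could not be placed, since 3 reads there correspond to 2.36 CPM, and knockout 2 rested on 8 reads with a 95% exact counting interval from 0.897 to 4.09 CPM. For Stard4 the log2 fold change was 1.43 (SE 0.73, interval -0.12 to 2.99) with an edgeR p of 0.0686 and an adjusted p of 0.999. Without the libraries of low depth it was 1.38 (SE 0.54, edgeR p 0.0304, adjusted p 0.622).

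Among the fatty acid genes Acly, which makes cytosolic acetyl-CoA from citrate, was abundant and steady. It measured 144, 191 and 163 CPM in the controls and 171, 158 and 205 in the knockouts, with overlapping groups (log2 fold change 0.10, SE 0.17, interval -0.26 to 0.46). Acaca, the acetyl-CoA carboxylase that commits carbon to fatty acid synthesis, was added after its values were seen. It measured 6.44, 5.43 and 20.4 CPM in the controls and 4.29, 4.68 and 9.72 in the knockouts. The high value belonged to control 3 and rested on 26 reads. Its log2 fold change was -0.64 (SE 0.54, interval -1.80 to 0.52), and 0.23 without the libraries of low depth. Acaca shares 30.4% of its 50-base words with other genes. Elovl6 was close to absent, with 25, 2 and 2 reads in the controls and 28, 0 and 2 in the knockouts.

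Fasn, the fatty acid synthase, varied more between libraries of the same genotype than any other gene of the list. It measured 11.5, 9.98 and 2051 CPM in the controls and 9.29, 765 and 59.4 in the knockouts, from 439, 371, 2610, 314, 2945 and 1278 reads. Controls 1 and 2 and knockout 1 were near 10 CPM, knockout 3 was several times higher, and knockout 2 and control 3 were far above. The highest library stood 221 times above the lowest. In the set of 88 genes, which holds Fasn, the same 3 libraries held the largest shares of reads, in the same order. For control 3 and knockout 2 the rule of that set fixed this in advance. Counting error of Fasn is small beside its spread, with a 95% exact interval of 1973 to 2131 CPM in control 3. The log2 fold change was -1.31 (SE 2.78, interval -8.92 to 6.30), and DESeq2 returned no p-value for Fasn. It turned to 1.66 (SE 1.03, edgeR adjusted p 0.879) without control 3 and knockout 2, where the 59.4 CPM of knockout 3 remained, so no direction can be given for Fasn. None of its 50-base words occurs in another gene, and 0 of its exonic bases overlap one. The part of library depth and content in this pattern was not tested.

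**Figure D4:**
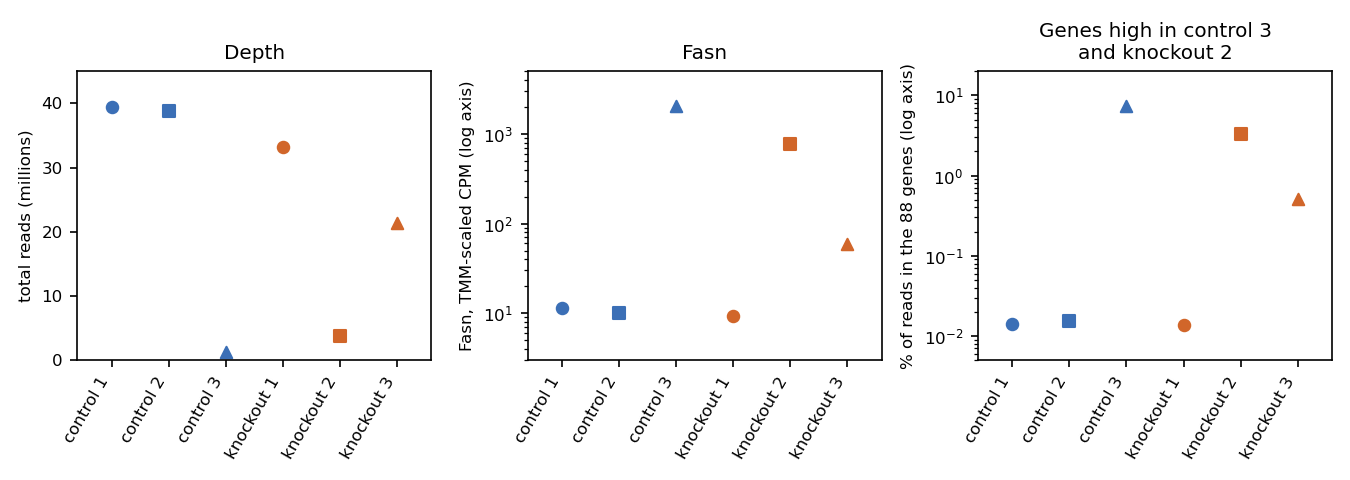
For each library, total reads, Fasn in TMM-scaled CPM (log axis) and the percentage of reads in the set of 88 genes, to which Fasn belongs (log axis). Control 3, knockout 2 and knockout 3 hold the 3 highest values of Fasn (2051, 765 and 59.4 CPM), the 3 largest shares (7.47%, 3.26% and 0.507%) and the 3 lowest totals.

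Fasn alone set the sum of the fatty acid arm. With it, the 4 genes summed to 162, 207 and 2236 CPM in controls and 185, 928 and 274 in knockouts. Without it, the remaining 3 gave 151, 197 and 185 against 176, 163 and 215 CPM. The same holds for the list as a whole. Without Fasn, 32 genes summed to 1077 ± 61.4 CPM in controls and 1117 ± 44.9 in knockouts (SD, n = 3 each), a ratio of 1.04 with overlapping groups.

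The desaturases differed in level and in how firmly they could be compared. Scd2, the stearoyl-CoA desaturase that dominated here, measured 90.5, 72.0 and 79.4 CPM in the controls and 88.3, 76.1 and 82.5 in the knockouts. The knockouts lay inside the range of the controls, and the log2 fold change was 0.03 (SE 0.17, interval -0.33 to 0.39). Its near relative Scd1 was scarce, at 0.710, 0.457 and 0 CPM in the controls (27, 17 and 0 reads) and 0.918, 2.86 and 2.14 in the knockouts (31, 11 and 46 reads). Knockouts 2 and 3 were highest, and knockout 1 was close to control 1. The 0 reads of control 3 allow up to 2.36 CPM at the floor of 3 reads, above knockouts 1 and 3, and their exact 95% upper limit of 2.90 CPM lies above all 3 knockouts, so control 3 could not be placed for Scd1 either. For Scd1 the log2 fold change was 1.89 (SE 0.90, interval -0.04 to 3.82), with an edgeR p of 0.0545 and an adjusted p of 0.999. Scd1 shares 4.56% of its 50-base words with other genes, chiefly Scd3.

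Fads1 had the smallest p among the genes below 0 and was added with Fads2 and Scd2 after the values were seen. It measured 85.5, 106 and 61.3 CPM in the controls and 64.7, 62.9 and 65.0 in the knockouts. The knockouts were nearly equal, controls 1 and 2 lay above them, and control 3, with 78 reads, lay below. The means were 84.2 ± 22.2 and 64.2 ± 1.18 CPM (SD, n = 3 each), a log2 fold change of -0.40 (SE 0.20, interval -0.82 to 0.02, edgeR p 0.0585). Without control 3 it was -0.58 with an edgeR p of 0.0035 and an adjusted p of 0.277. Without both libraries of low depth it was -0.56 (SE 0.16) with an edgeR p of 0.0070, the smallest of the list in that fit. The adjusted p there was 0.335, so Fads1 did not pass there either. Without control 2 the log2 fold change was -0.20. Fads2 measured 1.31, 1.88 and 7.07 CPM in the controls and 1.12, 1.04 and 1.72 in the knockouts. Its one high value, in control 3, rested on 9 reads, and the log2 fold change of -1.14 (SE 0.81) became -0.18 without the libraries of low depth.

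Genes around the pathway were read from 4 further lists. Of their 42 tested genes, 0 were called by edgeR, 1 by DESeq2 (Lipa) and 0 by limma voom. Of all genes, edgeR called 0.0317% higher and 0.0127% lower, DESeq2 0.526% and limma voom 0.095% in either direction. At an unadjusted edgeR p under 0.05 there were 2 of the 42, Hacd2 and Lipa, where 2.34% of all genes were higher and 1.98% lower. The proteases and INSIG turnover factors that set SREBP release were measured for 8 of 8 genes, 3 above 0 and 5 below, with a median log2 fold change of -0.09. The smallest p among them was that of Mbtps2, the site-2 protease, at 36.4 ± 10.4 CPM in controls and 27.1 ± 6.58 in knockouts (log2 fold change -0.38, edgeR p 0.160, adjusted p 0.999). Without the libraries of low depth Mbtps2 had -0.015.

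Of 16 genes supplying acetyl-CoA, NADPH and acyl chains 14 were tested, 4 above 0 and 10 below, with a median log2 fold change of -0.16. Hacd2, a dehydratase of very long-chain fatty acid elongation, had 32.2, 48.8 and 25.1 CPM in controls and 15.3, 27.0 and 16.9 in knockouts. Knockouts 1 and 3 lay below all controls, and knockout 2 just above control 3. The log2 fold change was -0.89 (SE 0.29, edgeR p 0.0074, adjusted p 0.778), and -1.34 without the libraries of low depth, with an adjusted p of 0.0886.

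Oxysterols, made when cholesterol is plentiful, activate the liver X receptors (LXRs), whose targets export cholesterol. In this list 8 of 10 genes lay above 0, against 8290 of 15787 of all genes tested, and the median log2 fold change was 0.16. Apoe, the lipid carrier secreted by microglia and macrophages, had the smallest p, at 326, 815 and 438 CPM in controls and 1695, 1277 and 701 in knockouts. Control 2 overlapped with the knockouts, and the log2 fold change was 1.22 (SE 0.52, edgeR p 0.074, adjusted p 0.999). Without the libraries of low depth Apoe had 1.07 (edgeR p 0.292, adjusted p 0.908). There Nr1h2, Abcg1 and Mylip of this list turned below 0, to -0.024, -0.016 and -0.058, and Lpl turned above 0, to 0.15. Border-associated macrophage markers, of which 8 of 8 were measured, summed to 14.9 to 89.6 CPM in controls and 64.2 to 254 in knockouts, highest in knockout 1. All 8 lay above 0, at a median log2 fold change of 2.34. Pf4 had 1.31 ± 1.15 CPM in controls and 10.5 ± 5.88 in knockouts, and Ms4a7 6.58 ± 3.21 and 29.96 ± 15.7 (SD, n = 3 each), both without overlap. DESeq2 called them, at adjusted p of 0.00693 and 0.000186, and edgeR did not, at 0.298 and 0.366. Over all genes tested, 6.59% were higher without overlap, and DESeq2 called 0.526% in either direction. Lyve1 and Cd209f had 0 reads in control 1 and Pf4 in control 3. Their part in the Apoe level was not tested.

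Of 10 genes for cholesterol trafficking, esterification and oxidation, 4 were above 0 and 6 below, with a median log2 fold change of -0.02. Lipa, the lysosomal acid lipase that frees cholesterol from its esters, measured 379, 360 and 298 CPM in controls and 557, 544 and 484 in knockouts. Each knockout lay above each control, and the log2 fold change of 0.61 (SE 0.15) had an edgeR p of 0.00082 and an adjusted p of 0.261. DESeq2 called it, at an adjusted p of 0.00638, so the call for Lipa depends on the tool. Without the libraries of low depth the log2 fold change was 0.49 with an edgeR adjusted p of 0.306. Summed over this list, the levels were 2250 ± 161 CPM in controls and 2393 ± 48.8 in knockouts (SD, n = 3 each), with overlapping groups.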

How the data were processed

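RNA of sorted cortical microglia was measured in 6 libraries, 3 a group, grouped by the sample titles. The values are raw read counts, one whole number a gene and library, which the authors made with bcl2fastq, STAR, Subread, featureCounts and Salmon on GRCm39, per the submitters' processing notes. Whether counting used the strand is not stated in them. Per the labels' protocols, cDNA came from the SMARTer Ultra Low RNA kit and was amplified by PCR. Of 55774 rows, 287 repeated an identifier and were left out, 0 named no gene and 0 columns belonged to other samples.

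Counts were filtered with edgeR's default filter, scaled by TMM and tested with edgeR 4.0.16 (R 4.3.3; robust quasi-likelihood F-test, two-sided, group as the only term), with Benjamini-Hochberg adjustment over all genes. Each SE is the size of the coefficient over the root of F. DESeq2 1.42.0 and voom of limma 3.58.1, other scalings and filters, a replicate block and left-out libraries were alternatives. The fit was tested on simulated data. A 50-base word is any 50-base stretch of a gene's GENCODE M21 transcripts; overlaps and lengths come from the same annotation, an annotation of the assembly before GRCm39. A planned protein comparison of paralogs was not run, and protein sequences are not used here.

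Members, gene lists and tests were chosen with earlier results of these data known. Values in every library were to be given for the regulators, for genes with an unadjusted p under 0.05 or groups that do not overlap, and for the 3 genes with the highest mean CPM. In the further lists, genes with an unadjusted p under 0.05 were to be named, or the gene with the smallest p. Genes added after their values were seen are Hmgcs1, Cyp51, Msmo1, Acaca, Scd2, Fads1 and Fads2. On the TMM scale the floor of 3 reads was 0.0789 CPM in control 1 and 2.36 CPM in control 3, and intervals of counts are exact at 95%.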

Additional observations from a re-analysis of the deposited data

How the results depend on the processing

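The number of the 33 genes called stayed at 0 in each direction under all 17 alternatives, and the lowest edgeR, DESeq2 or limma adjusted p over them was 0.277. Their median log2 fold change of 0.03 moved to 0.083 with library totals, where the median of all genes moved from 0.02 to 0.08, to 0.083 with limma voom, and to between -0.043 and 0.086 with 1 library left out. Deviations of the same-numbered libraries had correlations of 0.30, -0.22 and -0.06, and those of control 3 and knockout 2, both of low depth, 0.29. These values show no pattern common to the numbers, and they cannot tell whether the mice were paired. With a replicate block, 16 genes of the whole table were called higher and 9 lower, 0 of them of the list, and Hmgcs1 went from 0.03 to -0.030. Under at least 1 alternative the log2 fold change changed sign for 17 of the 33 genes, and for 16 under none. Without control 2, Mvd, Tm7sf2 and Fdps turned from below 0 to 0.21, 0.50 and 0.35. There control 3, with 8, 2 and 0 reads of these genes, weighs more. With library totals Msmo1 became 0.019 and Ebp 0.046. With limma voom Insig2 became -0.051, Msmo1 0.090 and Fasn 1.38, and with library weights these were -0.018, 0.076 and 1.72, with Ebp at 0.014. On protein-coding genes Ebp became 0.0016. Without both libraries of low depth Insig2 became -0.13, Msmo1 0.10, Acaca 0.23 and Fasn 1.66. Leaving out 1 library gave -0.091 to 0.29 for Insig2, -0.16 to 0.21 for Hmgcs1, -0.13 to 0.10 for Msmo1, -0.076 to 0.056 for Ebp, -0.037 to 0.23 for Acly, -1.20 to 0.080 for Acaca, -4.35 to 4.65 for Fasn and -0.043 to 0.13 for Scd2. The cause of these changes was not tested. The stricter filter left 29 of the genes. Depth limits the comparison most in control 3, where 12 of the 33 genes had fewer than 10 reads.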

Other observations

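Acss2, which makes acetyl-CoA from acetate and is another textbook SREBP target, had levels ordered like those of Fasn at their upper end. It measured 1.26, 4.49 and 57.4 CPM in the controls and 4.06, 35.1 and 7.35 in the knockouts, with control 3, knockout 2 and knockout 3 highest. It was chosen after its values were seen, and its log2 fold change of -0.24 (SE 1.87) gives no direction. Of the genes that take cholesterol out of lysosomes, Npc1 had 183, 173 and 147 CPM in controls and 144, 141 and 121 in knockouts, each knockout below each control. Its log2 fold change was -0.31 (SE 0.16, edgeR p 0.0692, adjusted p 0.999), while that of Lipa in the same compartment lay above 0. Abca1, the cholesterol exporter, had 179, 214 and 198 CPM in controls and 241, 215 and 229 in knockouts, a log2 fold change of 0.21 (SE 0.15, adjusted p 0.999). Elovl1, an elongase of very long-chain fatty acids, had 300.5, 339 and 281 CPM in controls and 270.1, 236 and 264 in knockouts, a log2 fold change of -0.26 (SE 0.15, adjusted p 0.999). These 3 genes and Lipa are those of the 42 in the further lists whose groups did not overlap, 2 higher and 2 lower, where 6.59% and 4.47% of all genes were.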
